A study of Oryctolagus cuniculus with 17 samples.

Results

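The genes described here encode the FOS and JUN proteins that make up the transcription factor AP-1, together with EGR1, MYC and IER3, which are likewise known as immediate early genes. They were chosen by their human gene name, and where a name had several entries the entry with the highest total count was taken. Of 10 names looked for, 8 had an entry among the 13827 entries of the count table: FOS, FOSB, FOSL1, FOSL2, JUN, EGR1, IER3 and MYC. JUNB and JUND were not analysed here. The rule reads only names and total counts, although the genes were proposed with earlier results of these data known. All 8 genes passed the filter on low counts, as did 13142 entries in all.

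RNA was sequenced from the lung, the right one by the labels although the study's text names both sides, of New Zealand White rabbit pups born by caesarean section on gestational day 28, before term. All pups were preterm, were kept in incubators and received a milk replacer, so every group shares these conditions and none holds term-born animals. Hyperoxia groups breathed 95% oxygen and normoxia groups 21% oxygen, until postnatal day 3 (HT3 and NT3), day 5 (HT5 and NT5) or day 7 (HT7 and NT7). Each group had 3 libraries except HT5, which had 2, and the question was how the lung transcriptome diverges with the length of exposure. The tests take the libraries as independent, although the labels do not tell which pups were littermates. Their p-values rest on the spread within groups, estimated over all 17 libraries together.

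Immediate early genes are transcribed within minutes of a stimulus, from factors already present in the cell, and their messages are short-lived. AP-1 binds DNA as a pair: FOS, FOSB, FOSL1 and FOSL2 need a JUN protein as partner, whereas JUN can also pair with itself. Growth factor and stress signals reach these genes through the MAP kinases, and in the lung AP-1 is known for its part in the response to oxidants, wounding and inflammation.

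The libraries held between 13123731 and 18111086 counts when each locus was counted once, and levels are given as CPM, that is counts scaled to a common library total and corrected for library composition. Lung identity was clear in every library: SFTPC, the surfactant protein of alveolar type 2 cells, lay between 4033 and 12324 CPM and AGER, a marker of alveolar type 1 cells, between 669 and 4760 CPM. Because the RNA came from whole tissue, fewer cells of a type and less RNA per cell cannot be told apart. Skeletal muscle markers summed to 417 CPM in HT3 replicate 2 and 375 CPM in HT5 replicate 1, against at most 115 CPM elsewhere. A gene was called when its adjusted p in edgeR, over all genes tested, was under 0.05, and was counted as a DEG when that p was under 0.01 and its log2 fold change (log2FC) lay beyond 2 or -2.

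In the OryCun2.0 assembly used for the table, FOS (ENSOCUG00000021506) lies on chr20:29860717-29863277, FOSL1 (ENSOCUG00000011143) on chr1:193696883-193703300 and FOSL2 (ENSOCUG00000010706) on chr2:157652764-157670036, all on the minus strand. FOSB (ENSOCUG00000023019) is on the plus strand of the unplaced scaffold GL019006, from 120892 to 124737. EGR1 (ENSOCUG00000008439) and MYC (ENSOCUG00000014289) share a chromosome, at chr3:20738524-20741362 and chr3:143525107-143528319 on the plus strand. JUN (ENSOCUG00000001212) was listed at chr13:107996928-108032966 on the plus strand, a span of 36039 bases, although JUN is known as a gene without introns; what else that span holds was not tested. IER3 (ENSOCUG00000016451, chr12:22766146-22767535, minus strand) shares its locus with FLOT1 (ENSOCUG00000017308, chr12:22753166-22765452), which encodes the membrane scaffold protein flotillin-1. The 2 entries carry identical counts in every library, so every IER3 value below belongs to IER3 and FLOT1 together.

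The number of these genes called between hyperoxia and normoxia was larger on each later day. On day 3, none of the 8 genes was called, and FOSL1, which had the largest fold on days 5 and 7, had a log2FC of 0.50 (SE 0.47). On day 5, FOSL1, FOSB, MYC and the IER3 locus rose and JUN fell. On day 7, all the FOS family genes, EGR1, MYC and the IER3 locus rose, by 1.86-fold to 16.2-fold, and JUN was not called.

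The counts have to be read against a transcriptome that changed widely. On day 3, 0 of 8 genes were called by edgeR and 0 by DESeq2, with 1 gene, JUN, at an unadjusted p under 0.05 in each, where 1.03% of all genes tested were called and 15.3% had such an unadjusted p. On day 5, 5 of 8 were called against 31.3% of all genes, of which 15.9% rose and 15.4% fell. On day 7, 7 of 8 were called, all higher, against 47.4% in either direction and 23.7% in each. The median log2FC of the 8 genes was 0.35, 0.93 and 1.79 on days 3, 5 and 7, beside 0.00, -0.02 and -0.01 over all genes tested. By the DEG rule the numbers were 0, 1 and 3, the day 5 gene being FOSL1 and the day 7 genes FOSL1, FOSB and EGR1, with 0.0533%, 1.58% and 4.59% of all genes passing. At an adjusted p under 0.01 alone, 2 of 8 passed on day 5, against 16.2% of all genes.

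**Figure D1:**
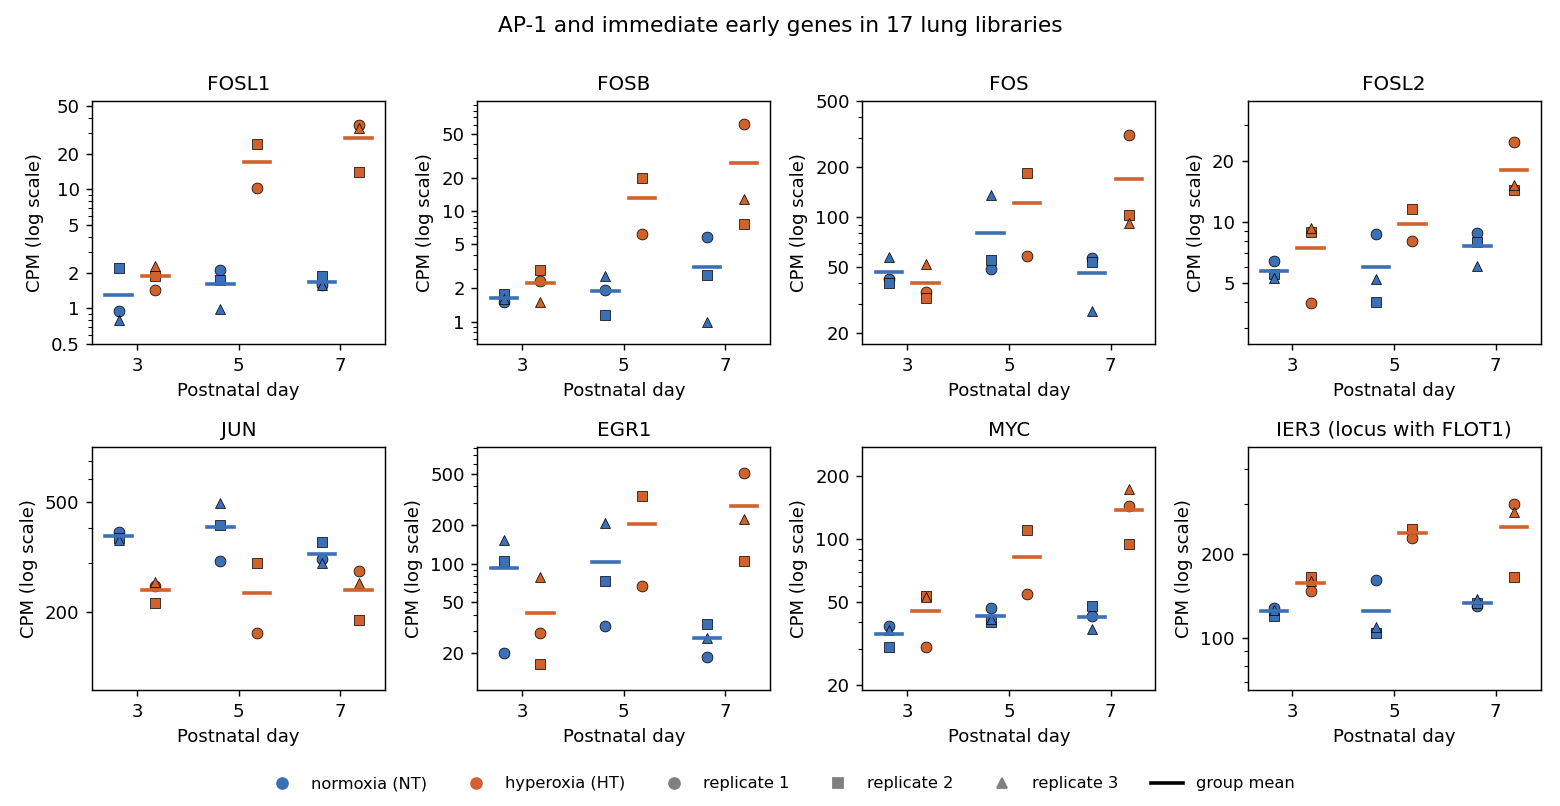
CPM of each gene (y axis, log scale) by postnatal day (x axis) in normoxia (blue) and hyperoxia (orange), with 1 point per library, its shape giving the replicate number, and a bar at the group mean. On day 7 every hyperoxia point lies above every normoxia point for 7 genes and below them for JUN.

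The separation of the libraries is given beside its share over all genes. In either direction it was near that share on days 3 and 5. HT5 has 2 libraries, so groups separate more readily on day 5 than on the other days. On day 3 the hyperoxia and normoxia libraries did not overlap for 2 of 8 genes, the IER3 locus above and JUN below, where 26.7% of all genes had groups that did not overlap. On day 5 it was 5 of 8, with 4 above and 1 below, against 55.7% of all genes, 26.5% above and 29.2% below. On day 7 it was 8 of 8, with 7 above and 1 below, against 54.5% of all genes, 27.3% above and 27.2% below. Without HT5 replicate 2 the day 5 count of called genes was 2, as it was without NT5 replicate 2, and it was 3 without NT5 replicate 3, so the number called on day 5 rests on single libraries.

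**Figure D2:**
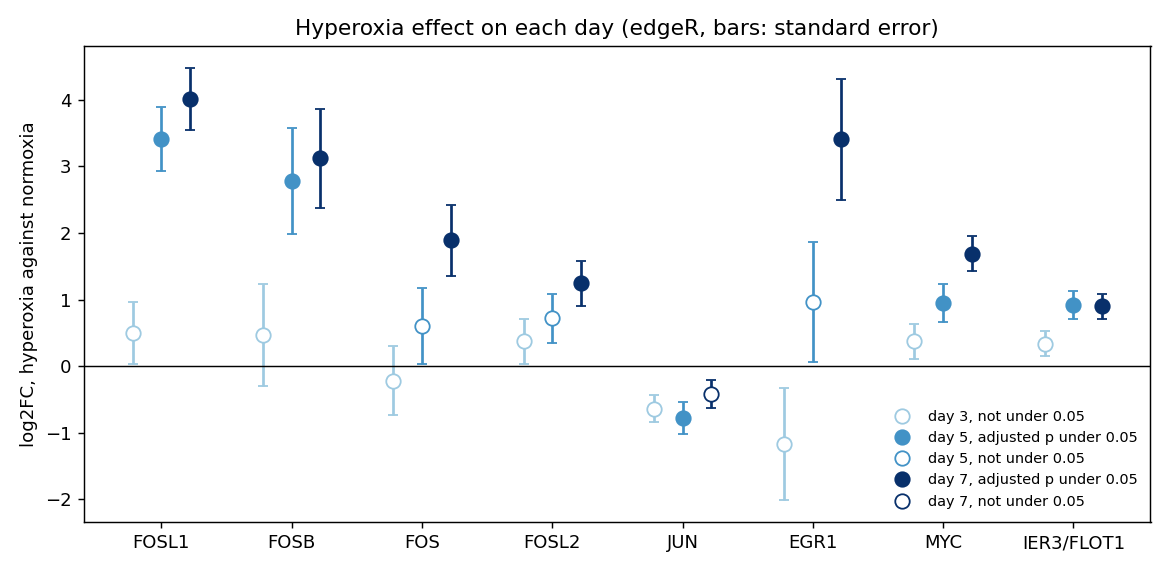
log2FC of hyperoxia against normoxia (y axis) for each gene (x axis) on days 3, 5 and 7 (light to dark), with bars of 1 standard error and filled points where the edgeR adjusted p was under 0.05. No point is filled on day 3, 5 are on day 5 and 7 on day 7, and the JUN points are the ones below 0 on all 3 days.

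FOSL1, which encodes FRA-1, a FOS protein without the strong activation domain of c-Fos, changed most. In normoxia it had 14 to 43 counts per library, at 0.952, 2.17 and 0.796 CPM in NT3, 2.12, 1.72 and 0.982 CPM in NT5 and 1.57, 1.89 and 1.56 CPM in NT7. In hyperoxia it was at 1.42, 1.88 and 2.28 CPM in HT3, 10.3 and 23.9 CPM in HT5 and 34.6, 13.97 and 33.1 CPM in HT7. The HT3 libraries overlapped NT3, while every HT5 and HT7 library was above all 9 normoxia libraries. The increase was 10.7-fold on day 5 (log2FC 3.42, SE 0.48, edgeR adjusted p = 0.00028) and 16.2-fold on day 7 (log2FC 4.02, SE 0.47, edgeR adjusted p = 1.4e-05). By log2FC on day 7 it ranked 54 of the 13142 genes tested, followed among the 8 genes by EGR1 at 85 and FOSB at 113. Leaving out any library kept the value between 2.67 and 3.90 on day 5 and between 3.81 and 4.34 on day 7, and the gene was called in each of these fits.

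FOSB, the FOS protein whose shortened form accumulates with repeated stimulation, had the next largest day 7 change of the FOS family. Its level was between 0.997 and 5.81 CPM over the 9 normoxia libraries, the highest being NT7 replicate 1. The hyperoxia libraries were at 2.31, 2.94 and 1.52 CPM in HT3, 6.19 and 20.0 CPM in HT5 and 61.5, 7.68 and 12.9 CPM in HT7. All HT5 and HT7 libraries were above all normoxia libraries, but HT7 replicate 1 alone was 8.01 times the lowest HT7 library. FOSB rose 6.87-fold on day 5 (log2FC 2.78, SE 0.79, edgeR adjusted p = 0.016) and 8.72-fold on day 7 (log2FC 3.12, SE 0.74, edgeR adjusted p = 0.0031). Without HT7 replicate 1 the day 7 log2FC was 1.72 and stayed called (edgeR adjusted p = 0.031). Without HT5 replicate 2 the day 5 log2FC was 1.68 and was not called (edgeR adjusted p = 0.27), nor was it without NT5 replicate 2 (edgeR adjusted p = 0.058).

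FOS itself, encoding c-Fos, was called on day 7 only. It was at 42.6, 40.0 and 57.7 CPM in NT3, 49.0, 55.2 and 137 CPM in NT5 and 57.1, 53.4 and 27.4 CPM in NT7. In hyperoxia it was at 35.6, 32.7 and 52.1 CPM in HT3, 58.3 and 186 CPM in HT5 and 314, 104 and 91.9 CPM in HT7. Libraries overlapped on days 3 and 5, and on day 7 all HT7 libraries were above NT7, although NT5 replicate 3 was higher than HT7 replicates 2 and 3. The changes were -0.22 (SE 0.52) on day 3 and 0.60 (SE 0.57) on day 5, neither called, and on day 7 FOS rose 3.70-fold (log2FC 1.89, SE 0.53, edgeR adjusted p = 0.0093). Without HT7 replicate 1 the day 7 log2FC was 1.09 and was not called (edgeR adjusted p = 0.085), and without HT5 replicate 2 the day 5 log2FC was -0.48.

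FOSL2, which encodes FRA-2, had the smallest day 7 change in the FOS family. It was at 8.82, 7.96 and 6.04 CPM in NT7 and at 24.6, 14.4 and 15.2 CPM in HT7. Every HT7 library exceeded every normoxia library of the study, which ranged from 4.01 to 8.82 CPM. The day 7 increase was 2.37-fold (log2FC 1.25, SE 0.34, edgeR adjusted p = 0.0072). HT5 was at 7.98 and 11.6 CPM against 8.66, 4.01 and 5.22 CPM in NT5, and HT3 at 3.96, 8.86 and 9.34 CPM against 6.39, 5.49 and 5.29 CPM in NT3. These groups overlapped, and neither difference was called (log2FC 0.72, SE 0.37 on day 5 and 0.37, SE 0.34 on day 3), although the day 5 difference was without NT5 replicate 1 (log2FC 1.08, edgeR adjusted p = 0.047).

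JUN, one of the possible partners of the FOS proteins, went the other way. It was at 389, 371 and 363 CPM in NT3, 306, 412 and 492 CPM in NT5 and 310.0, 357 and 301 CPM in NT7. Under hyperoxia the levels were 249, 216 and 256 CPM in HT3, 168 and 301 CPM in HT5 and 281, 188 and 255 CPM in HT7. Hyperoxia libraries lay below all normoxia libraries of the same day on each of the 3 days, by a narrow margin on day 5. JUN fell on day 5 (log2FC -0.78, SE 0.23, edgeR adjusted p = 0.021), and its log2FC was -0.64 (SE 0.21, edgeR adjusted p = 0.15) on day 3 and -0.42 (SE 0.21, edgeR adjusted p = 0.11) on day 7. The day 5 call was lost without HT5 replicate 1 (log2FC -0.42, edgeR adjusted p = 0.20), without NT5 replicate 2 (edgeR adjusted p = 0.052), without NT5 replicate 3 (edgeR adjusted p = 0.078) and in a fit of the day 5 groups alone (edgeR adjusted p = 0.12). The groups of day 3 alone gave a call on that day (edgeR adjusted p = 0.023), and the replicate number as a block gave one on day 7 (edgeR adjusted p = 0.047).

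EGR1, a zinc finger factor induced by growth factors and stretch, was the most variable of the genes. It was at 20.1, 106 and 154 CPM in NT3, 32.8, 72.8 and 206 CPM in NT5 and 18.7, 33.7 and 26.5 CPM in NT7. In hyperoxia it was at 29.0, 16.6 and 78.4 CPM in HT3, 67.2 and 338 CPM in HT5 and 511, 104 and 224 CPM in HT7. Groups overlapped on days 3 and 5, and on day 7 all HT7 libraries were above NT7, the group in which EGR1 was lowest and least spread. EGR1 rose 10.6-fold on day 7 (log2FC 3.41, SE 0.91, edgeR adjusted p = 0.0065), and the log2FC without HT7 replicate 1 was 2.64, the lowest of the fits that left out 1 library, all of which kept the call. The log2FC was -1.17 (SE 0.84) on day 3 and 0.96 (SE 0.91) on day 5, neither called, and the day 5 value without HT5 replicate 2 was -0.65. Compared with all 9 normoxia libraries and not with NT7 alone, HT7 replicate 2 was within the range, since NT5 replicate 3, NT3 replicate 3 and NT3 replicate 2 were higher.

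MYC, a driver of ribosome production and cell growth, was called on days 5 and 7. It was at 38.3, 30.4 and 36.8 CPM in NT3, 46.9, 40.3 and 41.4 CPM in NT5 and 42.9, 47.9 and 37.3 CPM in NT7. In hyperoxia it was at 30.6, 53.5 and 52.7 CPM in HT3, 54.9 and 111 CPM in HT5 and 144, 95.2 and 173 CPM in HT7. HT3 overlapped NT3, and all HT5 and HT7 libraries were above all 9 normoxia libraries. MYC rose 1.93-fold on day 5 (log2FC 0.95, SE 0.29, edgeR adjusted p = 0.022) and 3.23-fold on day 7 (log2FC 1.69, SE 0.27, edgeR adjusted p = 0.00016). The day 7 call held in every fit that left out 1 library, with log2FC from 1.50 to 1.91. The day 5 call was lost without HT5 replicate 2 (log2FC 0.34, edgeR adjusted p = 0.51), without NT5 replicate 2 (edgeR adjusted p = 0.060) and without NT5 replicate 3 (edgeR adjusted p = 0.059), as well as with the replicate number as a block (edgeR adjusted p = 0.12) and in a fit of the day 5 groups alone (edgeR adjusted p = 0.060).

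The locus of IER3, a stress-induced protein that acts on cell survival and on MAP kinase signalling, and of FLOT1 rose on days 5 and 7. It was at 128, 120.2 and 126 CPM in NT3, 161, 105 and 110 CPM in NT5 and 130.1, 134 and 139 CPM in NT7. The hyperoxia levels were 147, 166 and 160.3 CPM in HT3, 228 and 245 CPM in HT5 and 301 and 283 CPM in HT7 replicates 1 and 3, with 165 CPM in replicate 2. Hyperoxia libraries were above normoxia libraries of the same day on all 3 days. The increase was 1.89-fold on day 5 (log2FC 0.92, SE 0.21, edgeR adjusted p = 0.0046) and 1.86-fold on day 7 (log2FC 0.90, SE 0.19, edgeR adjusted p = 0.0014), and on day 3 the log2FC was 0.34 (SE 0.19, edgeR adjusted p = 0.42). Without HT5 replicate 2 the day 5 difference was not called (log2FC 0.85, edgeR adjusted p = 0.055).

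Whether the response itself differed between days was tested by subtracting the log2FC of one day from that of another. Between days 7 and 3 the difference was called for FOSL1 (3.52, SE 0.65, edgeR adjusted p = 0.0032), EGR1 (4.58, SE 1.23, edgeR adjusted p = 0.018) and MYC (1.32, SE 0.37, edgeR adjusted p = 0.024), all larger on day 7. That is 3 of 8 genes, against 20.5% of all genes tested and 9.52% with a larger day 7 value. By the DEG rule and at an adjusted p under 0.01 alone it was 1 of 8, FOSL1, against 1.56% and 7.27% of all genes. For FOS (2.11, SE 0.74, edgeR adjusted p = 0.058) and FOSB (2.65, SE 1.05, edgeR adjusted p = 0.086) the difference missed the threshold, and for FOSL2, the IER3 locus and JUN it was 0.88, 0.56 and 0.22. The EGR1 difference was not called without HT7 replicate 1 (3.81, edgeR adjusted p = 0.052), nor the MYC difference in 6 of the 12 fits that left out 1 library, those without HT3 replicate 1, HT7 replicate 1 or 3, NT3 replicate 1 or 3, or NT7 replicate 3 (edgeR adjusted p from 0.0504 to 0.0653), nor with the replicate number as a block (edgeR adjusted p = 0.0575), a fit that called FOS and FOSB. Without HT7 replicate 1 the number called was 1, and without HT7 replicate 2 it was 6, with FOS, FOSB and the IER3 locus added. FOS was also called in a fit of the 4 groups compared alone (2.09, edgeR adjusted p = 0.031) and without HT7 replicate 3 (edgeR adjusted p = 0.047), and FOSB without NT7 replicate 1 (edgeR adjusted p = 0.045).

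The other differences between days gave fewer calls. Between days 5 and 3 only the FOSL1 difference was called (2.92, SE 0.67, edgeR adjusted p = 0.047), that is 1 of 8 genes, against 1.46% of all genes. This call was lost in 8 of the 11 fits that left out 1 library, those without HT3 replicate 1 or 2, any NT3 library, NT5 replicate 2 or 3, or HT5 replicate 2 (2.17, edgeR adjusted p = 0.32), and with the replicate number as a block (2.47, edgeR adjusted p = 0.13). With the other settings counted, 10 alternative fits in all lost the FOSL1 call. Between days 7 and 5, edgeR and DESeq2 called 0 of 8, with 0 at an unadjusted p under 0.05 in either, where edgeR called 0% of all genes and 8.56% had such an unadjusted p.

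Within hyperoxia, 7 of 8 genes were higher in HT7 than in HT3, where 44.3% of all genes were called and 22.3% were higher. The log2FC was 3.87 (SE 0.46) for FOSL1, 3.60 (SE 0.76) for FOSB, 2.76 (SE 0.88) for EGR1, 2.08 (SE 0.54) for FOS, 1.59 (SE 0.27) for MYC, 1.29 (SE 0.34) for FOSL2 and 0.66 (SE 0.19) for the IER3 locus. JUN did not follow, at 0.01 (SE 0.21), a value whose sign changed with the settings. By the DEG rule 3 of 8 passed, FOSL1, FOSB and FOS, against 3.52% of all genes. Without HT7 replicate 1 the number called was 4, EGR1, FOS and the IER3 locus being lost. EGR1 was also lost without HT3 replicate 1 (edgeR adjusted p = 0.069) and without HT3 replicate 2 (edgeR adjusted p = 0.077). From HT3 to HT5, FOSL1 (3.20, SE 0.47), FOSB (2.54, SE 0.78) and MYC (0.86, SE 0.29) were called by edgeR, 3 of 8 against 22.8% of all genes, and DESeq2 called 4 of 8. From HT5 to HT7, edgeR and DESeq2 each called 0 of 8, with 2 at an unadjusted p under 0.05 in each, against 1.45% of all genes called by edgeR and 18.6% at such a p.

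In normoxia none of the 8 genes was called between days. From NT3 to NT7, from NT3 to NT5 and from NT5 to NT7, edgeR and DESeq2 called 0 of 8, and edgeR called 0% of all genes in each. At an unadjusted p under 0.05 there were 0, 0 and 1 genes in edgeR and 1, 0 and 1 in DESeq2, where 6.27%, 5.64% and 4.45% of all genes reached that p in edgeR. EGR1 had the largest of these differences, with log2FC -1.82 (SE 0.86) from NT3 to NT7 and -1.98 (SE 0.87) from NT5 to NT7 and NT7 is the group that its day 7 change was measured against.

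Ratios were taken between the AP-1 messages analysed here. JUNB and JUND are not among them, so the ratios do not give the whole balance of FOS and JUN messages. The JUN entry spans 36039 bases, and what else it holds was not tested. The ratio of 2 genes within a library does not depend on its depth, and its change does not depend on gene length. It was taken relative to the mean log2 ratio of the normoxia libraries of the same day, with no test. The FOSL1 to JUN ratio was higher by 1.27 ± 0.36 (SD, n = 3) on the log2 scale in HT3, by 4.17 ± 0.26 (SD, n = 2) in HT5 and by 4.36 ± 0.44 (SD, n = 3) in HT7. The FOSL1 to FOS ratio was higher by 0.86 ± 0.28, 2.83 ± 0.32 and 2.20 ± 0.91 in HT3, HT5 and HT7. For both ratios HT3 overlapped NT3, while all HT5 and HT7 libraries were above the normoxia libraries of their day. The FOSL1 to FOSL2 ratio, between the FRA genes, was higher by 0.36 ± 0.39 in HT3, 2.60 ± 0.48 in HT5 and 2.699 ± 0.585 in HT7. The FOS to JUN ratio was higher by 0.41 ± 0.27 in HT3, 1.35 ± 0.59 in HT5 and 2.16 ± 0.82 in HT7, and overlapped normoxia on day 3 alone. The FOSB to FOS ratio was higher by 0.66 ± 0.84 in HT3, 2.10 ± 0.014 in HT5 and 1.16 ± 0.72 in HT7, with overlap on days 3 and 7. The FOSL2 to FOS ratio differed by 0.50 ± 0.64, 0.23 ± 0.80 and -0.50 ± 0.56 in HT3, HT5 and HT7, and overlapped normoxia on every day. In normoxia the same ratios varied between libraries with an SD of up to 1.38, reached by FOSL1 to FOS in NT5.

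The 8 genes differed in how far libraries of the same group lay apart. The pooled within-group SD of log2 CPM, over 11 residual degrees of freedom, was 1.23 for EGR1, 0.96 for FOSB, 0.72 for FOS, 0.57 for FOSL1, 0.45 for FOSL2, 0.37 for MYC, 0.28 for JUN and 0.25 for the IER3 locus. Among genes within 0.5 log2 CPM of its own level, EGR1 was more variable than 99.8%, FOS than 98.9% and FOSB than 94.9%, while FOSL1 was more variable than 77.3%. FOS and EGR1 were highest in the same library in 5 of 6 groups, and FOS, FOSB and EGR1 together in 3 of 6 groups, namely in HT5 replicate 2, HT7 replicate 1 and NT5 replicate 3. These are descriptions, and the genes of a library share its RNA.

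**Figure D3:**
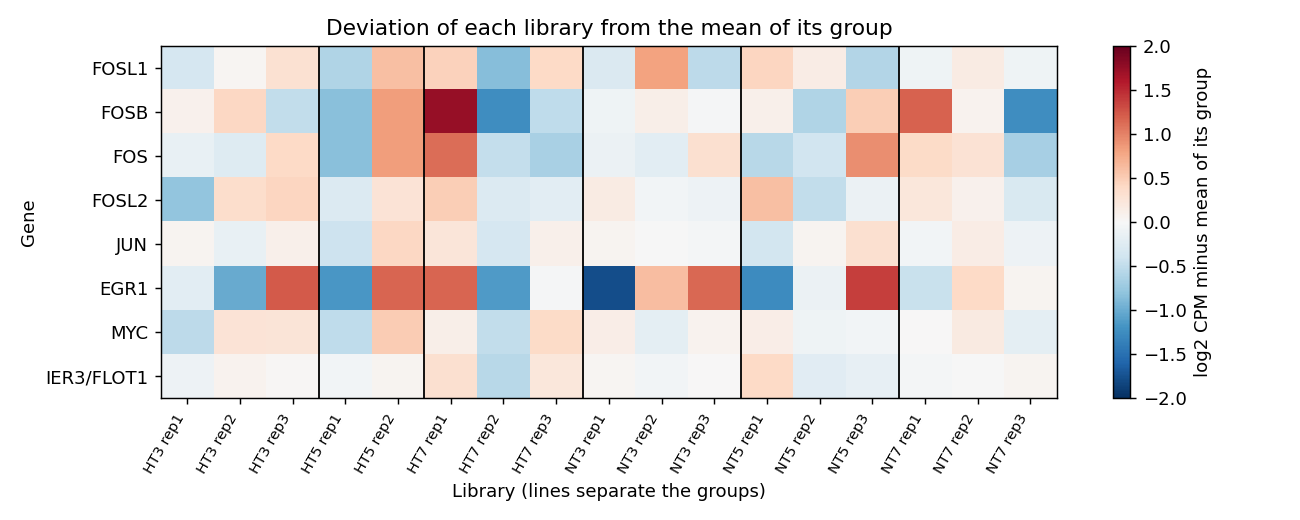
Deviation of log2 CPM from the mean of the library's own group (color, log2 scale) for each gene (y axis) in each of the 17 libraries (x axis, groups set apart by lines). EGR1, FOSB and FOS have the strongest colors, and HT7 replicate 1, HT5 replicate 2 and NT5 replicate 3 are above their group mean for all 3.

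HT7 replicate 1 was the highest HT7 library for all genes but MYC, and HT5 replicate 2 was above HT5 replicate 1 for all 8 genes. The same libraries differed in cell type markers, whose part in the result was not tested. Of 9 neutrophil markers listed, all were in the table and summed to 3526 CPM in HT7 replicate 1, against 1065 and 1553 CPM in HT7 replicates 2 and 3 and 1079 to 1190 CPM in NT7, with MMP8 under 1 CPM in every group. These markers were mixed as well: CSF3R was at 168 CPM in HT7 replicate 1 and 191 CPM in replicate 3, and of 8 tested on day 7 CXCR2 rose (log2FC 0.9995, SE 0.33), MPO fell (log2FC -2.19, SE 0.82) and 6 were not called. The 6 alveolar type 2 markers in the table, of 8 listed, summed to 13345 and 16138 CPM in HT7 replicates 1 and 3 and to 29240 CPM in replicate 2, the library with the lowest FOSL1, FOSB and EGR1 of HT7. They summed to 32894 CPM in HT5 replicate 1 and 12528 CPM in HT5 replicate 2, which held the higher levels of all 8 genes. The alveolar type 2 markers were mixed too. On day 7 SFTPA1 rose (log2FC 1.17, SE 0.39), while NAPSA (log2FC -1.49, SE 0.40) and SLC34A2 (log2FC -1.51, SE 0.52) fell. SFTPC, SFTPB and ABCA3 were not called. In normoxia, NT5 replicate 3 stood out with the highest FOS, EGR1 and JUN of the 9 libraries.

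Cell type markers moved with the comparison of the days as well, and their part in the gene levels was not tested. The 6 alveolar type 1 markers in the table, of 7 listed, summed to 1984 to 2635 CPM in HT7 and 6756 to 7605 CPM in NT7, and to 2312 to 3956 CPM in HT5 and 5903 to 7074 CPM in NT5. The 7 endothelial markers, of 8 listed, summed to 892 to 1272 CPM in HT7 and 2271 to 2685 CPM in NT7, and the 9 macrophage markers to 1905 to 2458 CPM and 1142 to 1368 CPM. The members of these lists did not all move together. Of the alveolar type 1 markers 4 fell on day 7, while HOPX (log2FC 0.35) and PDPN (log2FC 0.15) were not called. Of the endothelial markers 5 fell on day 7, while PECAM1 (log2FC -0.05) and VWF (log2FC 0.29) were not called, and VWF rose on day 5 (log2FC 1.14, SE 0.28). Of the macrophage markers 3 rose and 1 fell on day 7, with a median log2FC of -0.12. The 7 lymphocyte markers in the table, of 8 listed, summed to 3.07 to 3.63 CPM in HT7 and 7.93 to 15.3 CPM in NT7, and 5 of them fell on day 7. None of these markers was at 0 in any group. On day 3, when none of the 8 genes was called, neutrophil markers summed to 1170.0 to 1867 CPM in HT3 and 305 to 822 CPM in NT3. Of the 8 neutrophil markers tested on that day, 0 were called.

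The other genes of the pathway were taken as lists, whose counts stand beside 1.03% of all genes called on day 3, 15.9% higher and 15.4% lower on day 5, and 23.7% each way on day 7. Of 24 tested immediate early genes outside the 8, 0 were called on day 3, 11 rose and 1 fell on day 5, and 19 rose and 1 fell on day 7, when their median log2FC was 1.21. EGR3, a relative of EGR1, rose on day 7 (log2FC 4.43, SE 0.74, edgeR adjusted p = 0.00024), from 0.39 ± 0.22 to 8.62 ± 5.06 CPM (SD, n = 3 and 3). The stress kinase gene PLK3 rose from 6.75 ± 1.83 to 111 ± 56.7 CPM on day 7 (log2FC 4.03, SE 0.49) and the orphan receptor gene NR4A3 from 4.02 ± 3.11 to 55.2 ± 38.4 CPM (log2FC 3.78, SE 0.73). The same 3 genes led this list on day 5, with log2FC 3.35, 2.49 and 2.69. RHOB, a small GTPase, fell on day 5 (log2FC -0.55, SE 0.18) and day 7 (log2FC -0.62, SE 0.16). The list had 11 genes with a larger response on day 7 than on day 3 and 0 with a smaller response, where 9.52% of all genes had a larger one.

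Among 7 tested basic leucine zipper factors that can pair with AP-1 proteins, 3 rose on day 5, and 2 rose and 1 fell on day 7, with a median log2FC of 0.19 and 0.21. With 31.3% and 47.4% of all genes called on these days, nothing is read from 3 calls among 7 genes. ATF3, a stress factor, rose on day 5 (log2FC 2.44, SE 0.45) and day 7 (log2FC 2.41, SE 0.42), to 174 ± 85.3 CPM in HT5 (SD, n = 2) and 167 ± 36.1 CPM in HT7 (SD, n = 3). MAFF, a small MAF protein, rose by 1.72 (SE 0.28) and 1.97 (SE 0.26), and ATF2 rose by 0.43 (SE 0.10) on day 5, with a day 7 log2FC of 0.13 (SE 0.09) that was not called. BATF2 fell on day 7 (log2FC -1.20, SE 0.33), and its day 5 log2FC of -0.17 (SE 0.35) was not called. EGR1 is held in check by the co-repressors NAB1 and NAB2, which are themselves EGR targets, and both rose on day 5 (log2FC 0.98, SE 0.19 and 1.20, SE 0.17) and on day 7 (log2FC 1.34, SE 0.17 and 0.98, SE 0.16).

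Of 24 tested MAP kinases and factors of the SRF and TCF families, 6 rose and 6 fell on day 5 and 7 rose and 7 fell on day 7, with medians of 0.09 and 0.13. Over all genes, 15.9% rose and 15.4% fell on day 5 and 23.7% went each way on day 7. MAP2K3, the kinase above p38, rose by 1.11 (SE 0.24) and 1.80 (SE 0.22) on days 5 and 7, and MAP3K8 by 1.08 (SE 0.28) and 0.995 (SE 0.258). BRAF rose by 0.78 (SE 0.16) and 0.86 (SE 0.15), and MAP2K1, the kinase above ERK, by 0.53 (SE 0.12) and 0.87 (SE 0.11). RPS6KA2 fell by 0.94 (SE 0.17) and 1.54 (SE 0.15), MAPK9 by 0.66 (SE 0.14) and 0.63 (SE 0.12), and MRTFB by 0.49 (SE 0.15) and 0.79 (SE 0.13). ELK3, a repressor at serum response elements, fell on day 3 (log2FC -0.55, SE 0.10, edgeR adjusted p = 0.025), day 5 (log2FC -0.90, SE 0.12) and day 7 (log2FC -1.10, SE 0.11), and was the 1 gene of this list called on day 3.

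Receptor ligands and feedback inhibitors made up the rest of the upstream lists. Of 8 tested EGF receptor family ligands and receptors, 3 rose and 1 fell on day 5 and 4 rose and 2 fell on day 7, beside 31.3% and 47.4% of all genes called. The ligand AREG rose on day 5 (log2FC 3.70, SE 1.07) and day 7 (log2FC 2.63, SE 0.93) and HBEGF on day 7 (log2FC 1.85, SE 0.44), after a day 5 log2FC of 0.56 (SE 0.47) that was not called. EREG had 24 to 72 counts in the HT7 libraries and 0 to 2 in NT7. The receptor EGFR rose on both days (log2FC 0.44, SE 0.13 and 0.42, SE 0.12), ERBB2 fell on both days (log2FC -0.85, SE 0.14 and -1.17, SE 0.12), and the ligand BTC fell on day 7 (log2FC -1.01, SE 0.34) but was not called on day 5 (log2FC -0.42, SE 0.38). Of 15 tested MAP kinase feedback inhibitors, 2 rose on day 5 and 4 rose and 1 fell on day 7, with medians of 0.24 and 0.42, beside 15.9% and 23.7% of all genes higher, and nothing is read from these counts. DUSP4, a phosphatase that acts on MAP kinases in the nucleus, rose by 1.28 (SE 0.21) and 2.11 (SE 0.19), DUSP8 by 1.31 (SE 0.39) on day 5, and DUSP5 and SPRED3 by 2.10 (SE 0.43) and 2.56 (SE 0.75) on day 7, when DUSP10 fell (log2FC -0.78, SE 0.19). On the other day these genes were not called, with log2FC 0.57 (SE 0.35) for DUSP8 on day 7 and 0.55 (SE 0.46), 1.92 (SE 0.90) and 0.31 (SE 0.21) for DUSP5, SPRED3 and DUSP10 on day 5.

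Genes known as AP-1 targets had the largest median of these lists on days 5 and 7. Of 17 tested, 0 were called on day 3, 5 rose and 1 fell on day 5, and 13 rose and 1 fell on day 7, with medians of 0.42, 1.83 and 2.96, where 15.9% of all genes rose on day 5 and 23.7% on day 7. The study itself picked some of them, such as PTGS2, from these libraries, so the list is not independent evidence of its direction. The metalloproteinase gene MMP10 had 0 counts in all NT5 and NT7 libraries, and against a floor of 3 counts per library its mean was at least 72.8-fold higher in HT5 and at least 1068-fold higher in HT7. Taken from the lowest hyperoxia library alone the bounds were 32.8-fold and 133-fold, so both means rest largely on the higher libraries. With the gene at the bound of its mean, the medians of the list are the same. The cytokine gene LIF rose by 4.54 (SE 0.78) on day 5 and 6.66 (SE 0.81) on day 7, from 2.23 ± 0.67 CPM in NT7 to 226 ± 211 CPM in HT7 (SD, n = 3 and 3). PTGS2, the inducible cyclooxygenase, rose by 3.08 (SE 0.70) and 5.18 (SE 0.73) on days 5 and 7, and the neutrophil attractant CXCL8 by 3.24 (SE 1.01) and 3.32 (SE 0.96). VEGFA, an endothelial growth factor gene, fell by 1.83 (SE 0.25) and 2.20 (SE 0.22).

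Around MYC, targets and partners were listed separately. Of 15 tested MYC targets, 1 fell on day 3, 9 rose and 3 fell on day 5, and 11 rose and 2 fell on day 7, with medians of 0.19, 0.67 and 1.04, where 15.9% of all genes rose on day 5 and 23.7% on day 7. The ribosome assembly genes RRP12 and RRS1 rose on day 5 (log2FC 1.94, SE 0.23 and 1.33, SE 0.24) and day 7 (log2FC 2.06, SE 0.21 and 1.82, SE 0.22), and ODC1, the first enzyme of polyamine synthesis, by 1.72 (SE 0.32) and 1.81 (SE 0.30). CCND2 fell on both days (log2FC -0.61, SE 0.17 and -0.72, SE 0.15), as did the entry named NPM1 (log2FC -0.83, SE 0.28 and -0.67, SE 0.24). That entry was at only 2.30 ± 0.34 CPM in HT5 and 4.12 ± 0.18 CPM in NT5 (SD, n = 2 and 3), low for a message known as abundant, and whether it holds the whole gene was not tested. CAD, whose counts are shared with ATRAID, EMILIN1 and KHK, fell on day 3 (log2FC -0.67, SE 0.09, edgeR adjusted p = 0.0018) and day 5 (log2FC -0.47, SE 0.10), with a day 7 log2FC of -0.01 (SE 0.09). Of 9 tested network factors, 2 rose and 2 fell on day 5 and 2 rose and 3 fell on day 7, beside 31.3% and 47.4% of all genes called. MAX, the obligate partner of MYC, rose by 0.86 (SE 0.23) and 1.20 (SE 0.21), while MXD4 and MXI1, which compete with MYC for MAX, fell by 1.53 (SE 0.23) and 1.38 (SE 0.25) on day 5 and by 1.73 (SE 0.20) and 1.51 (SE 0.22) on day 7. MYCN had 1 to 10 counts in the HT7 libraries and 45 to 198 in NT7, opposite to MYC.

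**Figure D4:**
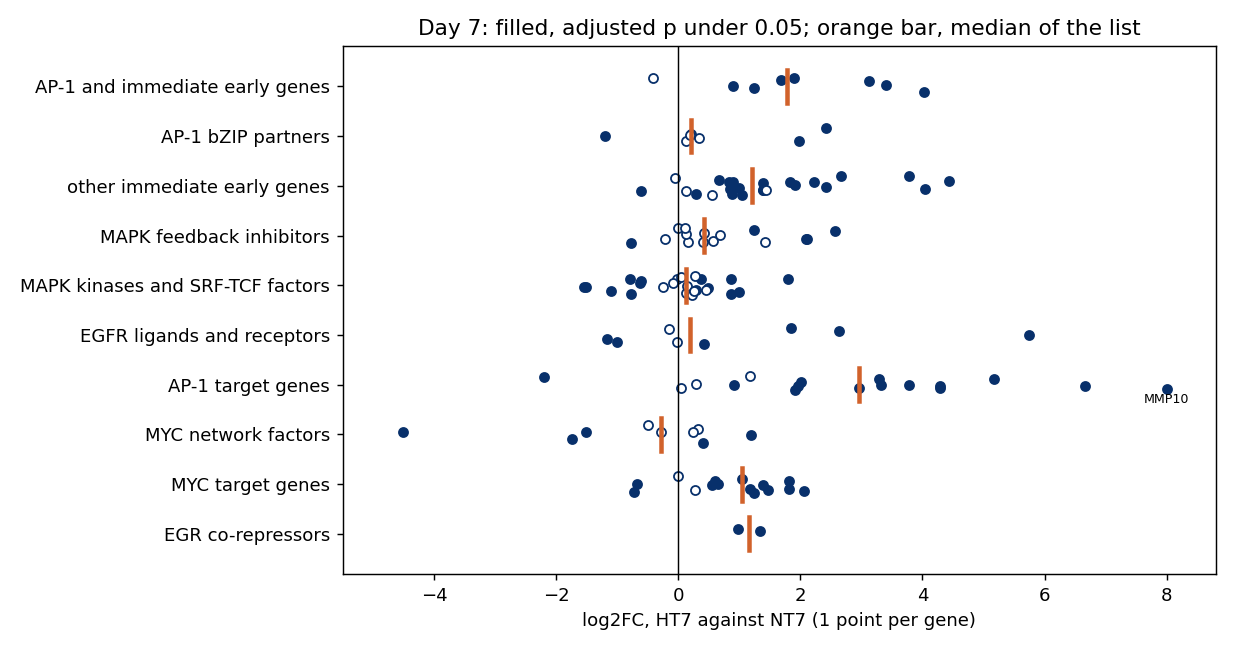
log2FC of HT7 against NT7 (x axis) for every tested gene of each list (y axis), 1 point per gene, filled where the edgeR adjusted p was under 0.05, with an orange bar at the median of the list. The 8 genes described here and the AP-1 targets have the medians farthest to the right, 1.79 and 2.96. MMP10, at 0 counts in NT7, was tested and called. Its point is placed near the right edge, below its fitted log2FC.

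By the distance between centred log2 CPM profiles over all 17 libraries, the genes most like FOSL1 were NCR3LG1, IGSF9B and TNFRSF12A, with root mean square differences of 0.45, 0.49 and 0.49. NCR3LG1 encodes a ligand of natural killer cells and TNFRSF12A the receptor of the cytokine TWEAK. Their day 7 log2FC was 3.43, 3.73 and 3.27, and on day 3 it was 1.03, -0.25 and 0.15, beside 0.50 for FOSL1. For MYC, a search added after seeing the data gave ABCC1, an exporter of glutathione conjugates, AHI1 and METTL17, at 0.20, 0.20 and 0.22, with day 7 log2FC 2.03, 1.53 and 1.47. All these neighbours were picked by their profiles over the same libraries, so their similar day 7 log2FC follows from the choice.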

How the data were processed

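The authors prepared stranded poly(A) libraries, sequenced them as paired ends and deposited the counts of each locus without normalizing them. The submitters' processing notes name FastQC, STAR 2.7.10a and OryCun2.0, and the counting program is not given in the sources used here. The table held 13827 entries at 13313 loci, and genes of 1 locus repeat its counts. Genes were taken by human gene name, and 44 entries without one were kept in all fits.

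Counts were tested with edgeR 4.0.16 in R 4.3.3: filterByExpr (13142 entries kept), TMM factors (0.958 to 1.05) and a quasi-likelihood fit of 6 group means to all 17 libraries, with Benjamini-Hochberg adjustment over all entries tested. log2FC used a prior count of 0.125 and log2 CPM a prior count of 2; CPM used TMM factors and the totals of the tested entries. The study's own tool, DESeq2 (here 1.42.0), was an alternative, beside RLE factors, no filter, 1 entry per locus, only the groups compared, a replicate block, stricter call rules and leaving out each library. Profiles, ratios and lists were described without a test, with pandas 2.3.3, numpy 2.4.6 and matplotlib 3.10.9 in Python. The edgeR steps were tested on simulated data. The precision of a group rests on its 2 or 3 libraries.

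The genes and lists were chosen with earlier results of these data known. The list genes named are, per list and day, up to 3 called in each direction with the largest log2FC whose hyperoxia and normoxia libraries did not overlap, and the profile neighbours are those of the gene with the largest day 7 log2FC, which also had the smallest adjusted p. Promoter and protein sequences were planned and were not used here.

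Same-numbered libraries were checked for pairing by the correlation of their deviations from group means: 0.166, 0.131 and 0.199 on day 3, 0.264 and 0.141 on day 5, and 0.174, 0.109 and 0.0695 on day 7. Only day 3 met a limit of 0.1 for all of at least 3 pairs. There the block called 0 of 8 genes, as the fit without it did. HT5 had 2 libraries, so day 5 could not meet the limit. Libraries of different numbers were not compared, so the check cannot decide whether the numbers pair the libraries on any day.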

Additional observations from a re-analysis of the deposited data

Results flagged for a closer look

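The hyperoxia effect differed between days for 3 of the 8 genes by a test of the difference itself in edgeR, between days 7 and 3, where 20.5% of all genes were called and 9.52% were larger on day 7. Between days 5 and 3 it was 1 of 8 genes, against 1.46% of all genes. For FOSL1 the log2FC was larger by 3.52 (SE 0.65, edgeR adjusted p = 0.0032) on day 7 than on day 3, and by 2.92 (SE 0.67, edgeR adjusted p = 0.047) on day 5 than on day 3. The first value was called in every fit that left out 1 library (2.94 to 3.84), the second in 3 of 11, and the second was lost with the replicate number as a block (2.47, edgeR adjusted p = 0.13). For EGR1 the difference between days 7 and 3 was 4.58 (SE 1.23, edgeR adjusted p = 0.018), from a log2FC of -1.17 on day 3 to 3.41 on day 7, and was 3.81 without HT7 replicate 1 (edgeR adjusted p = 0.052). For MYC it was 1.32 (SE 0.37, edgeR adjusted p = 0.024), with a range of 1.10 to 1.53 when 1 library was left out, and the call was lost in 6 of those 12 fits (edgeR adjusted p up to 0.0653) and with the replicate number as a block (edgeR adjusted p = 0.0575). Groups of 2 or 3 libraries are too small for the test for a library far from the others, so none was run.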

How the results depend on the processing

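The number of the 8 genes called on day 3 was 1 in place of 0 with only the groups compared (JUN, lower), a fit that called 117 genes higher and 164 lower of 12483. On day 5 it was 3 in place of 5 with only the groups compared, where calls over all genes also dropped, to 1190 higher and 1222 lower of 12694 from 2093 and 2022 of 13142, 2 at an adjusted p under 0.01 and 1 by the DEG rule, and ranged from 2 to 6 when 1 library was left out. On day 7 it was 3 in place of 7 by the DEG rule, and 6 to 7 with 1 library left out. For the difference between days 7 and 3 it was 1 in place of 3 by the DEG rule and at an adjusted p under 0.01, 4 with only the groups compared (FOS added), and 1 to 6 with 1 library left out. Within hyperoxia, from day 3 to day 7, it was 3 in place of 7 by the DEG rule and 5 at an adjusted p under 0.01. In that comparison it was 6 with only the groups compared and 4 to 7 with 1 library left out. From NT3 to NT7 it was 0 in every fit, and the other normoxia comparisons were run with edgeR and DESeq2 alone. DESeq2, RLE factors, no filter and 1 entry per locus gave the same counts as the edgeR fit in all 6 comparisons.

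With the replicate number as a block, 0, 4 and 8 genes were called on days 3, 5 and 7, MYC being lost on day 5, when the block called 1657 genes higher and 1676 lower, and JUN (lower, log2FC -0.44) added on day 7. In the difference between days 7 and 3 the block called 4, adding FOS (1.96) and FOSB (2.44) and losing MYC (1.31), and the FOSL1 difference between days 5 and 3 was lost under it (2.47, edgeR adjusted p = 0.13). Whether the numbers pair the libraries could not be decided by the check of their deviations.

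Signs changed for values that were not called. FOS and EGR1 on day 5 were -0.48 and -0.65 without HT5 replicate 2 (ranges with 1 library left out -0.48 to 1.23 and -0.65 to 1.94), and JUN from HT3 to HT7 was -0.012 with 1 entry per locus, -0.010 with only the groups compared, -0.0040 with DESeq2, -0.0039 with RLE factors, and -0.12 to 0.16 with 1 library left out. The cause was not tested. Leaving out an HT5 library leaves 1, which is then assumed to vary like the other groups. The planned description of promoter and protein sequences was not run. With 2 or 3 libraries per group, a gene that was not called is not shown to be equal, and FOSL1 and FOSB rest on few counts in normoxia (14 to 43 and 16 to 85 per library).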
